A study of Mus musculus with 21 samples.

Results

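The 9 genes described here encode receptors through which neutrophils sense chemokines and other chemoattractants: the chemokine receptors *Cxcr2*, *Cxcr4*, *Ccr1* and *Ccr2*, the atypical receptor *Ccrl2*, the formyl peptide receptors *Fpr1* and *Fpr2*, the platelet-activating factor receptor *Ptafr* and the leukotriene B4 receptor *Ltb4r1*. They were chosen by their symbols, with earlier results of these data known. All 9 were found among the 46366 genes that had at least 1 read in the series. Reads were added over the transcripts of each gene, and the genes were compared across 8 groups of polymorphonuclear neutrophils (PMNs) and renal tubular epithelial cells (TECs).

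Most of these receptors are 7-transmembrane proteins that couple to inhibitory G proteins, and their signals steer a neutrophil out of the bone marrow, across the vessel wall and into inflamed tissue. CXCR2 binds the CXC chemokines CXCL1 and CXCL2 and draws neutrophils into the circulation, whereas CXCR4 binds CXCL12 and holds them in the bone marrow. Formyl peptides, C5a, leukotriene B4 and platelet-activating factor act nearer to the site of injury. CCRL2 binds chemerin without coupling to G proteins.

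All mice were wildtype. IRI-induced AKI was produced by clamping the renal pedicles, and sham mice had a sham operation. Either surgery was preceded by remote ischemic preconditioning (RIPC, inflations of a cuff on the hind limb) or by a control procedure. Cells were taken 24 hours after surgery. PMNs, labelled as neutrophils from blood, comprised 2 libraries of the sham control group, 3 of sham RIPC, 2 of IRI control and 3 of IRI RIPC. TECs, labelled as tubular epithelial cells from kidney, comprised 3 libraries each of sham control and sham RIPC, 2 of IRI control and 3 of IRI RIPC. Libraries had 20881334 to 30507235 estimated reads in PMNs and 21479605 to 51624602 in TECs. The labels do not say whether a library came from 1 mouse, so the p-values measure the spread between libraries.

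The PMN libraries held the defining transcripts of neutrophils, but not only those. The summed level of 9 neutrophil marker genes, among them *S100a8*, *S100a9*, *Ly6g*, *Csf3r* and *Retnlg*, was 5919 to 25198 CPM in sham PMNs and 12518 to 34666 CPM in IRI PMNs, and all 9 were higher in PMNs than in TECs. CPM here are counts scaled to library size after TMM scaling over all 21 libraries. None of the 9 was at 0 in any PMN library. The C1q genes of macrophages (*C1qa*, *C1qb* and *C1qc*) summed to 2392 to 7384 CPM in sham PMNs and 198 to 1165 CPM in IRI PMNs, without overlap. The whole list of 11 monocyte and macrophage markers ran the other way, from 3594 to 11274 CPM in sham PMNs and from 9745 to 14074 CPM in IRI PMNs. Without *Cd14*, a co-receptor of TLR4 that activated neutrophils also express, the other 10 summed to 3045 to 9701 CPM in sham and 1190 to 2308 CPM in IRI PMNs. Markers of the proximal tubule (8 genes) summed to 1223 to 10808 CPM in sham PMNs and 508 to 905 CPM in IRI PMNs. The C1q and proximal tubule sums thus did not overlap between sham and IRI PMNs, while edgeR called 0 of the 9 neutrophil markers, 0 of the 8 proximal tubule markers and, of the 11 monocyte and macrophage markers, *Cd14*, which was higher. The part of this RNA in the differences given here was not tested. In such bulk libraries, fewer cells of a type and less RNA per cell cannot be told apart.

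The genes lie on 5 chromosomes in the annotation of GRCm38, and all are protein coding. *Cxcr2* occupies chromosome 1 from 74153989 to 74161246 on the plus strand, and *Cxcr4* chromosome 1 from 128588199 to 128592293 on the minus strand. On chromosome 9 are *Ccr1* (123962124 to 123968692, minus strand), *Ccr2* (124101950 to 124113557, plus strand) and *Ccrl2* (111054486 to 111057519, minus strand). *Fpr1* (17876471 to 17883940, minus strand) and *Fpr2* (17887824 to 17893952, plus strand) are head-to-head neighbors on chromosome 17, with 3884 bases between their annotated starts. *Ptafr* is on chromosome 4 (132564067 to 132582683, plus strand) and *Ltb4r1* on chromosome 14 (55765962 to 55768494, plus strand).

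The promoters of 4 genes whose levels in IRI and sham PMNs did not overlap are shown, because these genes had the largest log2 fold changes of the 9: *Ccrl2*, *Ccr1* and the neighbors *Fpr1* and *Fpr2*. Each runs from 250 bases before to 50 bases after the start in the RefSeq annotation of GRCm38.p6, 5′ to 3′ on the strand of the gene. The regions are chr9:111057469-111057768 (*Ccrl2*, the first of its 3 starts), chr9:123968643-123968942 (*Ccr1*), chr17:17883890-17884189 (*Fpr1*) and chr17:17887574-17887873 (*Fpr2*). Capitals mark a match to the NF-κB consensus, which was found in *Ccrl2* and *Ccr1*.
Ccrl2: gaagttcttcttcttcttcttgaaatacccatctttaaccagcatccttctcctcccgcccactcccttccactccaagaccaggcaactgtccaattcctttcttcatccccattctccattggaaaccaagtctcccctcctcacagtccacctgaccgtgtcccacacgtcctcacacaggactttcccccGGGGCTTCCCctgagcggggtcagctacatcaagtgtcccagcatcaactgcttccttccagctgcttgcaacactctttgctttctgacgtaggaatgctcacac
Ccr1: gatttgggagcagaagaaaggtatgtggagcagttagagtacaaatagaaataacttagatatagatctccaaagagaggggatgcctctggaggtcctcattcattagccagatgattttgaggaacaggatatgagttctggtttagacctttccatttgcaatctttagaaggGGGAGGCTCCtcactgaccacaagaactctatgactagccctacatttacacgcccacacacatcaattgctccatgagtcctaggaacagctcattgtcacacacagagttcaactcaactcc
Fpr1: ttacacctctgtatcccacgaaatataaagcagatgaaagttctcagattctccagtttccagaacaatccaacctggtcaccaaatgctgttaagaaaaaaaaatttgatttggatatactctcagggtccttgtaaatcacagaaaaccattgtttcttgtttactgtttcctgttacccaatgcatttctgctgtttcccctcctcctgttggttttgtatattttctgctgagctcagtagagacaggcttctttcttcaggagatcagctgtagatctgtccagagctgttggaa
Fpr2: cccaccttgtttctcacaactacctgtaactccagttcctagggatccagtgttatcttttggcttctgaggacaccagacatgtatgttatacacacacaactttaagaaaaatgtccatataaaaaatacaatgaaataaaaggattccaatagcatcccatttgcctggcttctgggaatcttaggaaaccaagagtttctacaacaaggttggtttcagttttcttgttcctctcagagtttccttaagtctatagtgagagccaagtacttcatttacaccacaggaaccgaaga

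The *Ccrl2* match began 56 bases and the *Ccr1* match 74 bases before the start. Of the 9 genes, these 2 held the consensus on either strand, and 8.46% of 32851 RefSeq mouse promoters of the same length held it. For each motif a gene was counted if any of its windows matched, and *Ccrl2* has 3, whereas the share of all promoters counts each window. The PU.1 core GAGGAAG was found in 1 of the 9 genes, *Ltb4r1*, and in 13.6% of all promoters. Neither the C/EBP core TTGCNNAA nor the AP-1 core TGANTCA was found in the windows of the 9 genes, and 10.8% and 7.81% of all promoters held them. The 4 motifs were searched on both strands, and no match overlapped a match to another motif. These are matches of letters in a window, and no binding was measured.

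Among the CXC receptors, *Cxcr2* stood apart between IRI and sham PMNs and *Cxcr4* did not. *Cxcr2* was at 282 and 130 CPM in the 2 sham control libraries, at 30.6, 151 and 153 CPM in sham RIPC, at 674 and 894 CPM in IRI control and at 541, 780 and 882 CPM in IRI RIPC. Every IRI library was above every sham library. *Cxcr4* was at 15.2 and 2.68 CPM in sham control, 87.6, 30.9 and 17.7 CPM in sham RIPC, 88.0 and 74.0 CPM in IRI control and 71.9, 95.7 and 38.3 CPM in IRI RIPC. One sham RIPC library reached the level of the IRI libraries, so the groups overlapped.

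*Ccr1* and *Ccrl2* also separated IRI from sham. *Ccr1*, a receptor for CCL3, CCL6 and CCL9, was at 378 and 27.1 CPM in sham control, 140, 93.1 and 51.5 CPM in sham RIPC, 1032 and 1345 CPM in IRI control and 1221, 1924 and 1366 CPM in IRI RIPC. The 2 sham control libraries lay at either end of the sham range. *Ccrl2* was at 223 and 258 CPM in sham control, 242, 152 and 220 CPM in sham RIPC, 1099 and 1956 CPM in IRI control and 2504, 2942 and 3280 CPM in IRI RIPC. Its sham libraries lay close together, and all 3 IRI RIPC libraries were above both IRI control libraries. *Ccr2*, the CCL2 receptor by which classical monocytes leave the bone marrow, was at 91.6 and 89.6 CPM in sham control, 169, 111 and 124 CPM in sham RIPC, 60.2 and 266 CPM in IRI control and 223, 104 and 138 CPM in IRI RIPC. For this gene the lowest and the highest PMN library were both IRI control.

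Both formyl peptide receptors, which sense bacterial and mitochondrial N-formyl peptides, were higher in each IRI library than in any sham library. *Fpr1* was at 85.7 and 23.7 CPM in sham control, 81.7, 45.0 and 22.7 CPM in sham RIPC, 339 and 459 CPM in IRI control and 482, 447 and 487 CPM in IRI RIPC. *Fpr2*, which also binds annexin A1, serum amyloid A and lipid mediators, was at 46.6 and 22.0 CPM in sham control, 37.7, 37.0 and 43.1 CPM in sham RIPC, 133 and 272 CPM in IRI control and 268, 227 and 257 CPM in IRI RIPC. For both genes, replicate 1 of IRI control was the lowest IRI library.

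The receptors for lipid mediators differed from each other. *Ptafr* was at 165 and 34.1 CPM in sham control, 135, 163 and 121 CPM in sham RIPC, 532 and 636 CPM in IRI control and 823, 886 and 620 CPM in IRI RIPC, again without overlap. *Ltb4r1*, the high-affinity leukotriene B4 receptor, was at 194 and 0.0958 CPM in sham control, 95, 65.9 and 20.4 CPM in sham RIPC, 102 and 154 CPM in IRI control and 98.4, 137 and 101 CPM in IRI RIPC. The highest and the lowest library were the 2 replicates of sham control, and the lower of them held 2 reads.

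**Figure D1:**
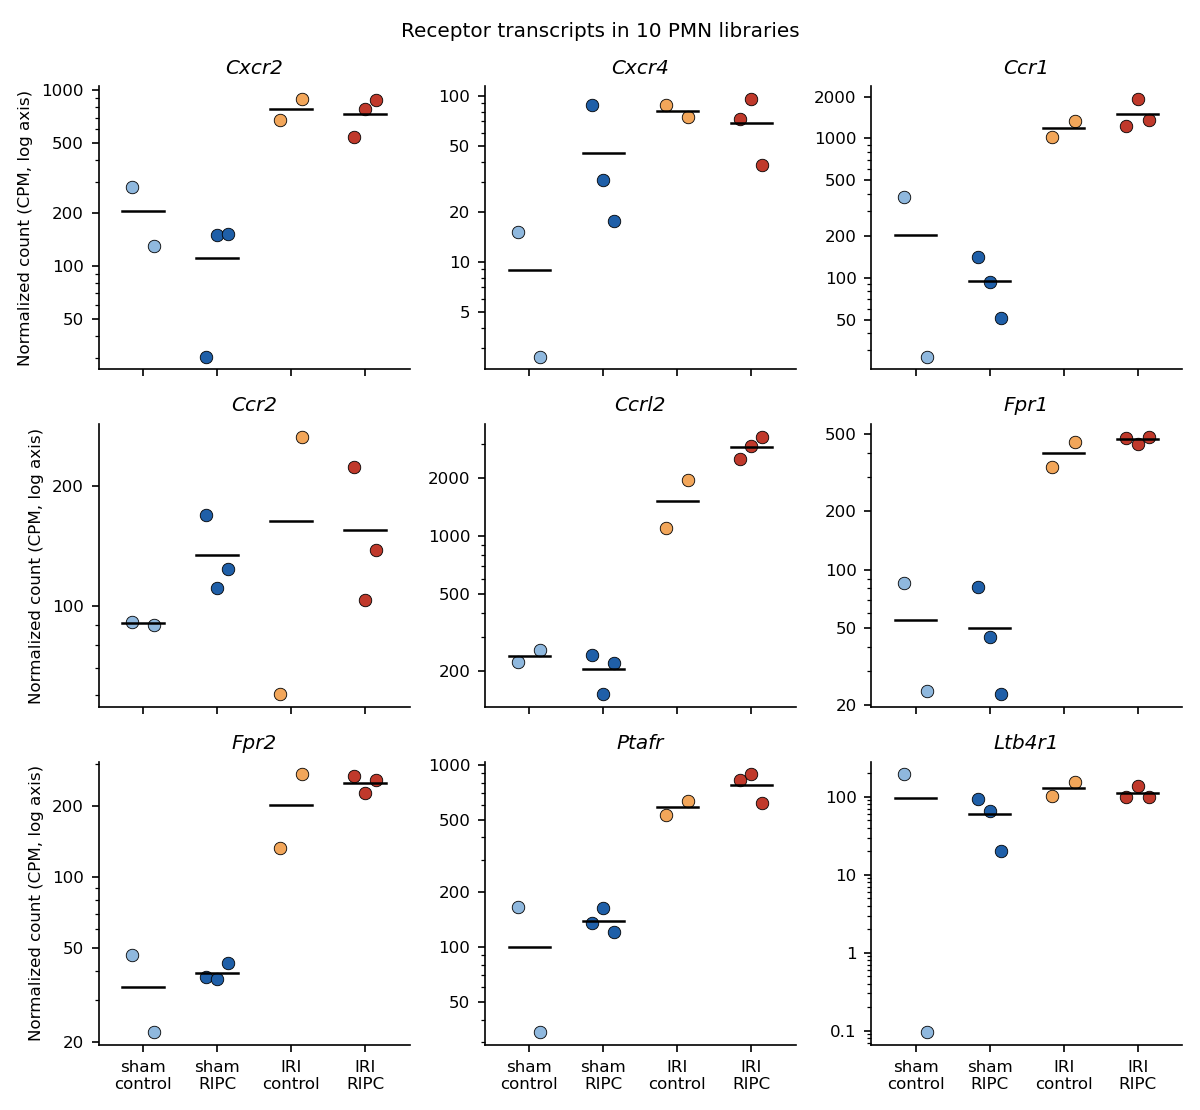
Normalized count (CPM, log axis) of each of the 9 receptor genes in the 10 PMN libraries, by group. Each point is a library and each line the group mean. *Ccrl2*, *Ccr1*, *Cxcr2*, *Fpr1*, *Fpr2* and *Ptafr* have every IRI point above every sham point, while *Cxcr4*, *Ccr2* and *Ltb4r1* overlap.

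The first comparison asked how IRI changed the receptors in PMNs, with control and RIPC mice weighted equally (5 IRI and 5 sham libraries). By edgeR's quasi-likelihood test with Benjamini-Hochberg adjustment over 25002 genes, *Ccrl2*, *Fpr2* and *Fpr1* rose, 3 of the 9 genes. Across all genes tested, 0.364% were called higher and 0.052% lower. *Ccrl2* rose 9.41-fold (log2 fold change 3.23, SE 0.24, adjusted p = 0.00438) and had the smallest p-value of the 25002 genes. *Fpr2* rose 6.09-fold (log2 fold change 2.61, SE 0.38, adjusted p = 0.0294), and *Fpr1* rose 8.23-fold (log2 fold change 3.04, SE 0.50, adjusted p = 0.0468).

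The other 6 genes did not pass. *Ptafr* had a log2 fold change of 2.50 (SE 0.43, adjusted p = 0.0520), *Ccr1* of 3.25 (SE 0.66, adjusted p = 0.106) and *Cxcr2* of 2.31 (SE 0.48, adjusted p = 0.115). For these 3 genes every IRI library was above every sham library. *Cxcr4* had a log2 fold change of 1.87 (SE 0.69, adjusted p = 0.390), *Ltb4r1* of 0.63 (SE 1.17, adjusted p = 0.903) and *Ccr2* of 0.51 (SE 0.46, adjusted p = 0.672). The median over the 9 genes was 2.50 and the median over all genes tested was -0.01. Of the 9 genes, 6 were higher in every IRI than in every sham library, as were 3.47% of all genes tested. At an unadjusted p under 0.05 were 7 of the 9 genes and 11.8% of all genes. Because the 9 genes were chosen with earlier results of these data known, these shares are a description and no test of the set.

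**Figure D2:**
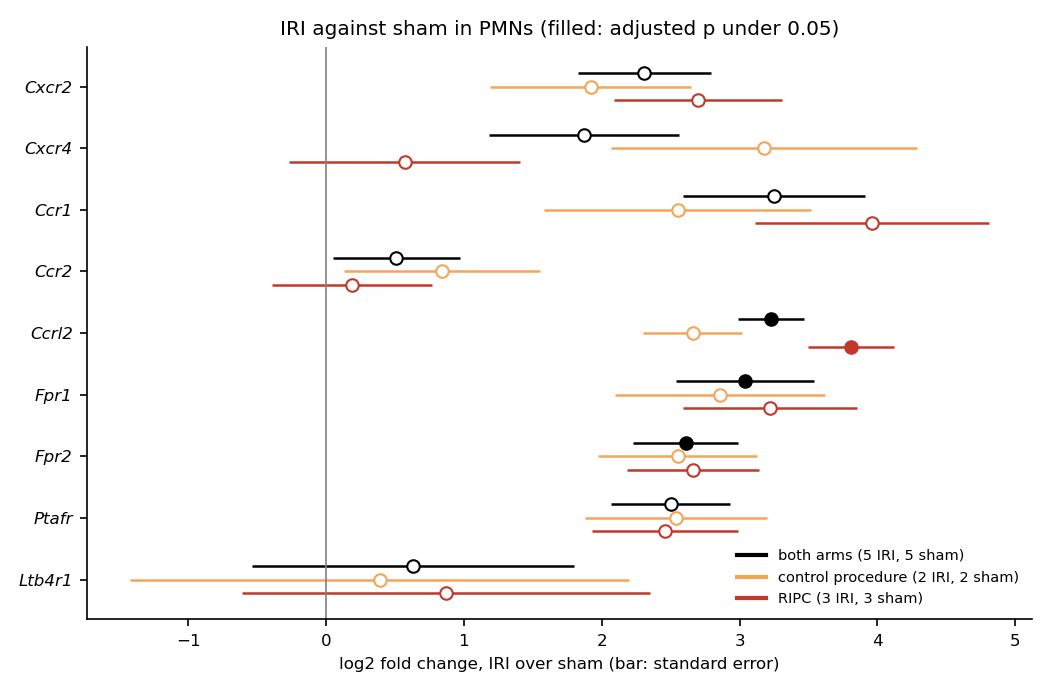
Log2 fold change of IRI over sham in PMNs for the 9 receptor genes, with the standard error as a bar, over both arms (5 IRI and 5 sham libraries), within the control procedure (2 and 2) and within RIPC (3 and 3). Filled points have an adjusted p under 0.05: *Ccrl2*, *Fpr1* and *Fpr2* over both arms and *Ccrl2* within RIPC.

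*Ccrl2* kept its call when any single library was left out, with adjusted p-values from 0.00221 to 0.0314 (edgeR). The other 2 calls were lost without some libraries. *Fpr2* remained past the threshold only without sham control replicate 1 (adjusted p = 0.0228) or sham RIPC replicate 3 (0.0454), and its adjusted p reached 0.174 without IRI control replicate 2. *Fpr1* kept its call without sham control replicate 1, sham RIPC replicate 1 or sham RIPC replicate 3, and its adjusted p reached 0.125 without IRI control replicate 2. Without sham control replicate 1, 6 of the 9 genes were called (393 genes of all), now also *Ptafr* (log2 fold change 3.29, adjusted p = 0.00422), *Ccr1* (4.72, adjusted p = 0.00414) and *Ltb4r1* (log2 fold change 5.60, adjusted p = 0.0176), but in that fit the median of all genes shifted to 1.08. The single library left in that group is there assumed to vary like the others. Without sham control replicate 2, *Ptafr* (adjusted p = 0.0369) and *Ccr1* (log2 fold change 2.86, adjusted p = 0.0292) passed. *Cxcr4* ran from 1.55 to 2.76 without sham control replicate 2 or 1 and was not called. *Ccr2* turned to -0.17 without IRI control replicate 2 and was not called in either fit.

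Within the RIPC arm (3 IRI and 3 sham libraries), *Ccrl2* rose 14.1-fold (log2 fold change 3.81, SE 0.31, adjusted p = 0.00519 by edgeR) and was the 1 of the 9 genes called (5 of 9 without sham control replicate 1 or 2, and none with library sizes set by neutrophil markers), against 0.22% of all genes called higher and 0.028% lower. Within the control arm (2 and 2 libraries), edgeR called no gene, of the 9 or of all, with 7 of the 9 genes and 1113 (4.45%) of all genes at an unadjusted p under 0.05. There *Ccrl2* had a log2 fold change of 2.66 (SE 0.36, adjusted p = 0.378), *Fpr1* of 2.86 (SE 0.76, adjusted p = 0.736) and *Fpr2* of 2.55 (SE 0.58, adjusted p = 0.636). DESeq2 called 562 genes and none of the 9 in the control arm. Without a filter on low counts, edgeR called 120 genes there and 2 of the 9, *Ccrl2* (adjusted p = 1.92e-04) and *Ccr1* (0.0204), and without sham control replicate 1 it called 82 genes and 3 of the 9.

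Levels can be compared between genes per transcript length, as TPM (counts divided by effective length and scaled to one total in each library). In IRI PMNs *Ccrl2* was the highest of the 9, with a median of 1012 TPM (478 to 1399 over 5 libraries), and did not overlap the next gene. *Ccr1* followed at 274 TPM, *Fpr1* at 224, *Fpr2* at 213, *Cxcr2* at 125 and *Ptafr* at 96.5 TPM, and neighbors in this order overlapped. *Ltb4r1* (median 50.5 TPM) lay below *Ptafr* and above *Cxcr4* (25.9 TPM) without overlap, and *Cxcr4* overlapped *Ccr2* (19.7 TPM). In sham PMNs the order of the medians began with *Ccrl2* (87.6 TPM), *Ltb4r1* (32.7) and *Fpr2* (31.3) and ended with *Ccr1* (18.1), *Ccr2* (16.6) and *Cxcr4* (6.04 TPM), and all neighbors overlapped. *Ccrl2* made up 37.1% to 56.3% of the summed TPM of the 9 genes in IRI PMNs and 20.3% to 61% in sham PMNs, so its share did not separate the groups.

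**Figure D3:**
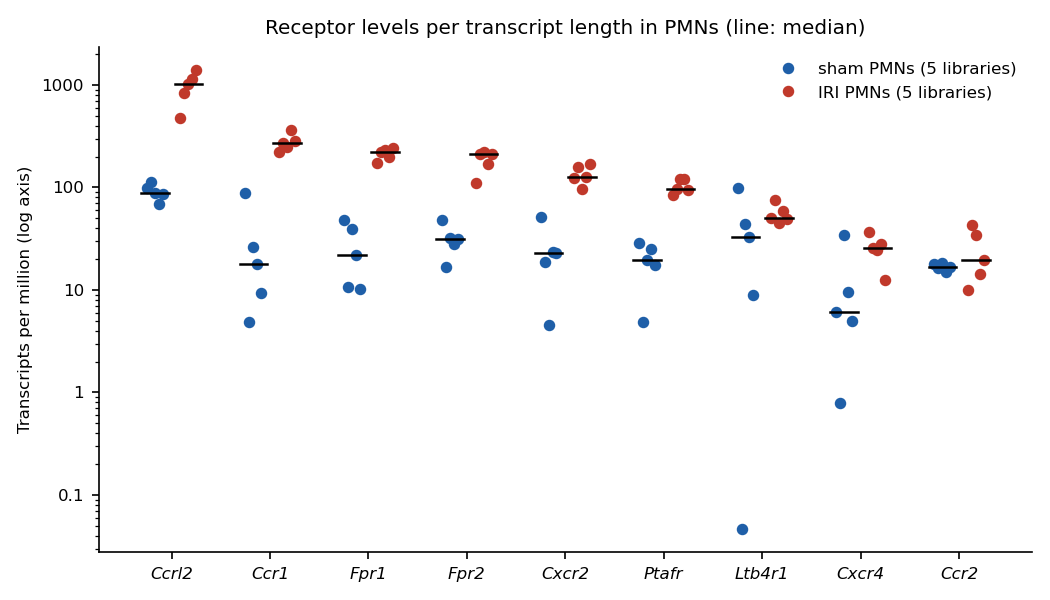
TPM (log axis) of the 9 receptor genes in 5 sham and 5 IRI PMN libraries, ordered by the median in IRI PMNs. Points are libraries and lines are medians. *Ccrl2* leads in IRI PMNs, with its 5 libraries between 478 and 1399 TPM.

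The receptors were also related to the marker sums library by library. Per 100 reads of the 9 neutrophil markers, *Ccrl2* had 0.886 to 3.71 reads in sham and 6.45 to 26.2 in IRI PMNs. *Ccr1* had 0.285 to 1.5 in sham and 5.55 to 10.9 in IRI, *Fpr1* 0.248 to 0.718 and 1.29 to 3.89, and *Ptafr* 0.358 to 2.04 and 2.56 to 4.95. These 4 of the 9 genes did not overlap on this scale, and 1.22% of all genes tested were higher in every IRI library than in every sham library on it. *Fpr2* (0.185 to 0.729 and 0.655 to 2.06) and *Cxcr2* (0.269 to 2.58 and 2.25 to 7.05) overlapped. The medians of *Cxcr4*, *Ccr2* and *Ltb4r1* changed 1.09-fold, 0.926-fold and 0.876-fold. Per 100 reads of the monocyte and macrophage list, the 6 genes that separated in CPM separated again, and 1.37% of all genes tested were higher in every IRI library on that scale. In IRI PMNs this list was mostly *Cd14*, with 9745 to 14074 CPM in all and 1190 to 2308 CPM without it. The scale is therefore not one of macrophage content.

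With the reads of the neutrophil markers as library size in the test, an alternative chosen after the marker levels were seen, none of the 9 genes was called, 9 genes were called in all (3554 at an unadjusted p under 0.05), and the median of all genes was -0.68. *Ccrl2* had a log2 fold change of 2.36 there (SE 0.49, adjusted p = 0.172), *Ccr1* of 2.81 (adjusted p = 0.131) and *Fpr1* of 2.51 (adjusted p = 0.172), while *Ccr2* was at -0.35. Without the 2 sham libraries richest in macrophage reads (sham RIPC replicates 1 and 2), 3 of the 9 genes were called, *Ccrl2* (log2 fold change 3.23, adjusted p = 0.00153), *Fpr1* (3.65, adjusted p = 0.0173) and *Cxcr2* (2.12, adjusted p = 0.04), but not *Fpr2* (2.58, adjusted p = 0.0648).

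**Figure D4:**
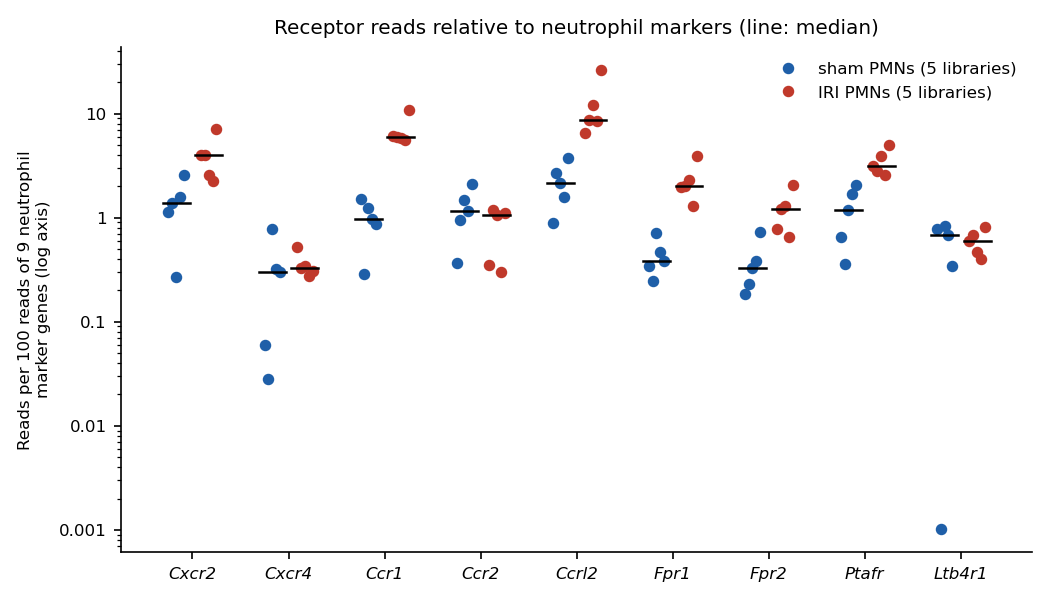
Reads of each receptor gene per 100 reads of 9 neutrophil marker genes (log axis) in 5 sham and 5 IRI PMN libraries. Points are libraries and lines are medians. *Ccr1*, *Ccrl2*, *Fpr1* and *Ptafr* have all IRI points above all sham points on this scale.

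The reads were assigned by the authors to single transcripts, and 2 genes shifted among theirs, a pattern chosen after the values were seen and given without a test. How many of all genes do so was not counted. The transcript shares of *Cxcr4*, *Ccr2* and *Fpr2* overlapped between IRI and sham PMNs, and the remaining genes have a single annotated transcript. *Cxcr2* has 2 annotated transcripts. Cxcr2-201 took 27.2% to 44.7% of the gene's reads in IRI PMNs and none in 4 of the 5 sham libraries, with 3.22% in the other. Cxcr2-202 took the rest. Of *Ccrl2*, the transcript Ccrl2-203 took 78.8% to 81.3% of the reads in IRI PMNs and 56.1% to 71.4% in sham PMNs, without overlap. With reads of 50 bases, transcripts of a gene share most of their sequence, and such shares are estimates.

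Some reads could not be unique to their gene. Of the 50-base stretches of *Fpr2*, 31.5% also occur in *Fpr3*, *Fpr1* or the pseudogene *Gm5966*, so its values are uncertain where the counting could divide reads. Of *Cxcr2*, 6.68% occur in other genes, and all 203 of these stretches lie in Cxcr2-202. They occur in 220 other genes. Cxcr2-202 took 96.8% to 100% of the *Cxcr2* reads in sham PMNs, and the part of shared reads there was not tested. The share was 1.91% for *Ccr2*, 1.64% for *Ptafr* and 0.0784% for *Fpr1*, and no stretch of *Cxcr4*, *Ccr1*, *Ccrl2* or *Ltb4r1* was shared. The 59 shared stretches of *Ptafr* occur in 193 other genes. Ccr2-203, which took 86.1% of the *Ccr2* reads in TECs, shares 19 stretches of its own with 22 other genes.

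The next comparison asked whether RIPC changed the receptors. In PMNs after sham surgery, edgeR called none of the 9 genes, with 1 of 9 and 4.6% of all genes at an unadjusted p under 0.05, and DESeq2 with or without apeglm called none. Of all genes, 0.004% were called. The exception before adjustment was *Cxcr4*, with a log2 fold change of 2.32 (SE 1.03, adjusted p = 0.705), whose 3 RIPC libraries (17.7 to 87.6 CPM) were above both control libraries (2.68 and 15.2 CPM). It was at 4.02 without sham control replicate 1, 1.60 without sham control replicate 2 and 1.42 without sham RIPC replicate 1, and was not called in these fits. The groups of *Ccr2* did not overlap either (111 to 169 CPM against 89.6 and 91.6 CPM), with a log2 fold change of 0.54 (SE 0.66, adjusted p = 0.940). Among all genes tested, 4.7% were higher in every RIPC library. *Cxcr2* was at -0.92 (SE 0.63, adjusted p = 0.717), *Ccr1* at -1.12 (SE 0.83, adjusted p = 0.747) and *Ccrl2* at -0.27 (SE 0.31, adjusted p = 0.927). *Ccr1* turned to 1.75 (adjusted p = 0.638) without sham control replicate 1.

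After IRI, edgeR again called none of the 9 genes in PMNs or of all 25002 (680 or 2.72% at an unadjusted p under 0.05, 1 of the 9 among them), and DESeq2 with or without apeglm called none of the 9. *Ccrl2* had the smallest p of the 9, with a log2 fold change of 0.89 (SE 0.32, adjusted p = 0.920), and its 2504 to 3280 CPM with RIPC did not overlap the 1099 and 1956 CPM of the control arm. Of all genes, 6.87% were higher in every RIPC library. *Cxcr4* was at -0.28 (SE 0.93, adjusted p = 1) and *Fpr1*, *Fpr2* and *Ptafr* were between 0.20 and 0.37. The interaction of RIPC and surgery, the test of whether RIPC acted differently after IRI than after sham surgery, called none of the 9 and no gene in all (1434 or 5.74% at an unadjusted p under 0.05, 1 of the 9 among them), and DESeq2 called none of the 9. *Ccrl2* had an interaction of 1.16 (SE 0.44, adjusted p = 0.719) and *Cxcr4* of -2.60 (SE 1.35, adjusted p = 0.739), which ran from -4.28 without sham control replicate 1 to -1.71 without sham RIPC replicate 1. These comparisons share libraries with each other.

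TECs held few reads of the receptors, apart from *Cxcr2*. *Cxcr2* had reads in all 11 TEC libraries, from 1.42 to 47.5 CPM with a median of 24.8 CPM. Its lowest library was sham control replicate 2, with 57 reads, and the other 10 were at 14.6 CPM or more. All of the 6598 reads of *Cxcr2* in TECs were assigned to Cxcr2-202 and none to Cxcr2-201, the transcript without shared stretches. *Ccr2* reached 15.4 CPM (median 0.739) and *Ptafr* 4.07 CPM (median 1.32), each with 1 TEC library at 0 reads. *Ccrl2* had 338 reads over the 11 libraries, of which 250 were in sham control replicate 2 and 77 in IRI control replicate 2. *Ccr1* had 290 reads and was at 0 in 7 libraries, *Cxcr4* 187 reads and at 0 in 5, and *Fpr2* 177 reads and at 0 in 8, 163 of them in IRI control replicate 1. *Fpr1* had 2 reads and *Ltb4r1* 10 reads, each in 1 library. A count of 0 allows up to 3 reads, counting error only.

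Of the 7 genes with enough reads for a test of IRI in TECs, all but *Fpr1* and *Ltb4r1*, edgeR called none, with 2 of 7 and 15% of all genes at an unadjusted p under 0.05, and DESeq2 called none. Of 25917 genes tested, 0.255% were called higher and 1.15% lower. The 2 genes were *Fpr2* (log2 fold change 5.95, SE 2.54, adjusted p = 0.3) and *Ccr1* (5.32, SE 2.45, adjusted p = 0.331), and *Cxcr2* was at 0.49 (SE 0.70, adjusted p = 0.826). *Ccr1* had reads in 3 of 5 IRI libraries, at 2.46 to 5.45 CPM, and in 1 of 6 sham libraries, at 1.28 CPM. Its log2 fold change was 1.63 without IRI RIPC replicate 1 and 8.54 without sham control replicate 3, and *Fpr2* had too few reads for a test without IRI control replicate 1 or IRI RIPC replicate 3. The 9 neutrophil markers summed to 9.97 to 72.1 CPM in IRI TECs and 0.199 to 15.4 CPM in sham TECs, and the part of neutrophil RNA in these values was not tested. RIPC gave no call among the 7 genes in TECs after sham surgery or after IRI, nor did its interaction with surgery (edgeR, none of 7 at an unadjusted p under 0.05; DESeq2 none). Of all genes, none was called after sham surgery (1175 or 4.53% at an unadjusted p under 0.05), 0.00386% after IRI (4.35% at an unadjusted p) and none for the interaction (1869 or 7.21%).

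All 9 receptors were called higher in PMNs than in TECs (edgeR over 31769 genes, both surgeries and arms weighted equally), where 2.91% of all genes were called higher and 3.95% lower. The 9 calls held in every alternative fit and without any single library. *Fpr1* and *Ltb4r1* had too few reads to be tested within TECs and entered this fit through their PMN reads. Their calls were thus largely set by the filter and add nothing to those of the other 7 receptors. *Cxcr2* had the smallest difference, 14.7-fold (log2 fold change 3.88, SE 0.48, adjusted p = 2.02e-05), followed by *Ccr2* at 33.6-fold (5.07, SE 1.01, adjusted p = 0.00285) and *Cxcr4* at 68-fold (6.09, SE 1.27, adjusted p = 0.00425). The part of reads from stretches shared with other genes in the TEC values of *Cxcr2*, *Ccr2* and *Ptafr* was not tested. *Ptafr* was 185-fold higher (7.53, SE 0.72, adjusted p = 9.43e-07), *Fpr2* 927-fold (9.86, SE 1.14, adjusted p = 1.91e-05), *Ccr1* 1457-fold (10.51, SE 1.36, adjusted p = 6.29e-05) and *Ccrl2* 2128-fold (11.06, SE 1.19, adjusted p = 4.44e-06). These fitted folds depend on TEC libraries at or near 0. From the pooled CPM of all libraries the ratios were 226 for *Fpr2* (95% counting interval 195 to 264), 780 for *Ccr1* (695 to 878), 1135 for *Ccrl2* (1021 to 1267) and 292 for *Ptafr* (265 to 322), so that *Fpr2* and *Ptafr* changed places in the order. Without single TEC libraries the log2 fold change reached 12.14 for *Fpr2* (IRI control replicate 1), 12.29 for *Ccr1* (IRI RIPC replicate 1), 13.21 for *Ccrl2* (sham control replicate 2), 7.85 for *Cxcr4* (IRI control replicate 1) and 6.64 for *Ccr2* (IRI control replicate 2). For *Fpr1* and *Ltb4r1* the fitted folds rest on very few TEC reads and are not given. Their pooled CPM were 36988-fold (95% counting interval 10239 to 305421) and 2855-fold (1552 to 5954) higher in PMNs. Except for *Cxcr2* and *Ltb4r1*, every PMN library was above every TEC library, as for 0.818% of all genes. The exceptions were the PMN library of sham RIPC with 30.6 CPM of *Cxcr2* and the sham control library with 2 reads of *Ltb4r1*.

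**Figure D5:**
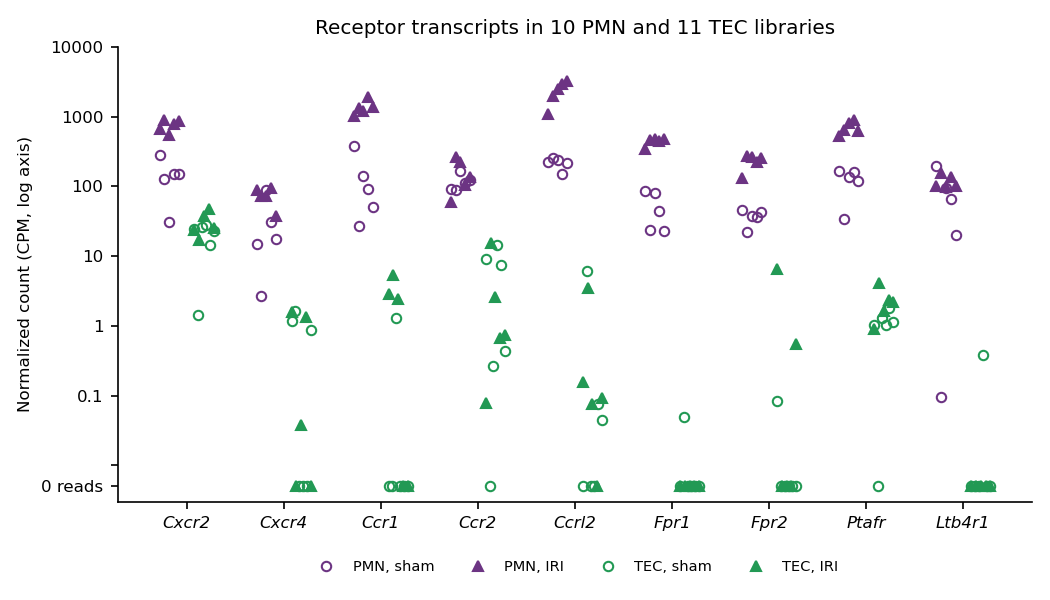
Normalized count (CPM, log axis, libraries without reads drawn on the line marked 0 reads) of the 9 receptor genes in 10 PMN and 11 TEC libraries. Open circles are sham and filled triangles IRI libraries. *Cxcr2* is the gene with the highest TEC levels, and *Fpr1* and *Ltb4r1* have reads in 1 TEC library each.

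Whether IRI changed the receptors differently in the 2 cell types was tested in the same fit. EdgeR called none of the 9 and no gene in all, with 1 of the 9 and 3102 of 31769 genes (9.76%) at an unadjusted p under 0.05. *Cxcr2* had the smallest p (difference of log2 fold changes 1.81, SE 0.85, adjusted p = 0.497). *Fpr2* was at -3.36 (SE 1.65, adjusted p = 0.533) and *Ccr1* at -2.05 (SE 1.62, adjusted p = 0.873), a larger fitted rise in TECs, where both had few reads. *Ccrl2* was at 3.12 (SE 1.66, adjusted p = 0.591). Without TEC sham control replicate 2, which held most of the TEC reads of *Ccrl2*, its difference was -1.20 (adjusted p = 0.764). DESeq2 called 2349 genes for this difference. *Fpr1* and *Ltb4r1* had no reads in IRI TECs, and the difference could not be estimated for them.

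Other genes of the same pathways were followed as lists. Of 18 other chemokine receptors, 13 were tested in PMNs and edgeR called none for IRI against sham. *Cx3cr1*, the fractalkine receptor of monocytes and macrophages, had the smallest p (log2 fold change -5.76, SE 1.05, adjusted p = 0.0696), from 16.8 to 245 CPM in sham and 0.133 to 9.52 CPM in IRI PMNs, and *Ackr3*, the scavenging receptor for CXCL12, was at -7.75 (SE 2.30, adjusted p = 0.324). The median of the 13 was -0.44. Of 20 other chemoattractant receptors, 12 were tested and 2 rose: *C5ar1*, the C5a receptor (log2 fold change 2.03, SE 0.31, adjusted p = 0.0374), and *Gpr35* (2.50, SE 0.39, adjusted p = 0.0374). *C5ar1* went from 171 to 620 CPM in sham to 1192 to 2330 CPM in IRI PMNs, and *Gpr35* from 29.1 to 60.6 CPM to 204 to 439 CPM. The median of these 12 was 2.26.

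Of 33 ligands and enzymes that form or degrade ligands, 31 were tested and 1 rose. This was *Cxcl2*, a ligand of CXCR2, with a log2 fold change of 2.99 (SE 0.26, adjusted p = 0.00672), from 332 to 727 CPM in sham to 3268 to 6283 CPM in IRI PMNs. The median of the 31 was 0.98. *Cxcl2* was also the 1 gene of 25 ligands tested that edgeR called higher in IRI TECs (log2 fold change 8.00, SE 1.48, adjusted p = 0.0182). It was at 0 to 0.114 CPM in sham and 3.88 to 35.7 CPM in IRI TECs. It thus entered this fit through its IRI reads, so the call was partly set by the filter. The fitted fold rests on very few sham reads. The 9 neutrophil markers summed to 0.199 to 15.4 CPM in sham TECs and 9.97 to 72.1 CPM in IRI TECs. The part of neutrophil RNA in the rise of *Cxcl2* in TECs was not tested. Of 26 genes that carry or limit the receptor signal, all were tested in PMNs and edgeR called none, with a median of 0.77. Among them are G protein subunits, PI3 kinase gamma, Rac2, GRKs, arrestins and RGS proteins. *Pik3r6*, a regulatory subunit of PI3 kinase gamma, had the smallest p (4.85, SE 1.07, adjusted p = 0.139), followed by *Plcb3* (-6.23, SE 2.24, adjusted p = 0.392). For RIPC, no gene of the 4 lists was called in PMNs or TECs after either surgery.

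Between cell types, 6 of 15 other chemoattractant receptors were higher in PMNs and none was lower, with *Gpr35* (log2 fold change 6.93, SE 0.59, adjusted p = 3.11e-07) and *C5ar1* (12.30, SE 1.2, adjusted p = 1.92e-06) first. Of 16 other chemokine receptors, 2 were higher in PMNs, among them *Cx3cr1* (4.76, SE 0.67, adjusted p = 9.83e-05). In this list 1 gene, *Ackr3*, was lower in PMNs (-6.17, SE 0.98, adjusted p = 4.83e-04), with 13.6 to 92.2 CPM in TECs. Of the ligands 16 of 31 were higher in PMNs, led by *Cxcl2* (10.74, SE 0.65, adjusted p = 5.23e-09), and 1, *Mif*, was lower (-1.61, SE 0.32, adjusted p = 0.00280). Of the signalling genes 17 of 26 were higher and none lower, led by *Rac2* (7.94, SE 0.70, adjusted p = 4.21e-07).

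The genes most like the 9 receptors over the 21 libraries were found by Pearson's r with the mean of their z-scored log2(CPM + 1). They were *Stfa2l1* (r = 0.991), *Gm49339* (0.985), *Lcp1* (0.983), *Clec4e* (0.982) and *Lrrc25* (0.982). Of the receptors themselves, *Ptafr* (0.995) and *Fpr1* (0.994) lay nearest to the mean, which contains them, and *Ccr2* (0.903) and *Cxcr2* (0.905) farthest. The 21 points share the split into PMNs and TECs, in which all 9 receptors differ, and r is given as a description.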

How the data were processed

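RNA of sorted PMNs and TECs was reverse transcribed from poly(A) with template switching and amplified, and single-end reads of 50 bases were made. Per the labels' processing notes and the study's methods, the authors trimmed reads with Trim Galore 0.6.4 and estimated transcript abundance with Salmon 1.0.0 against a Gencode mouse transcriptome (mm10). The deposited files give an estimated count, TPM and effective length per transcript, in 2 files per library whose difference is not stated. Here estimated counts were added over both files and over the transcripts of a gene, then rounded, and the deposited TPM were used only to compare levels between genes. TPM of a library are the mean of its 2 files, added over the transcripts of a gene. Of 140748 transcripts, 884 were not matched to a gene, with 0.139% to 0.255% of the reads of a library. Transcripts were assigned to genes with Gencode M21 (GRCm38). Genes of chromosomes X, Y and M were left out of the tests.

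Genes were filtered (filterByExpr) and tested with edgeR 4.0.16 (quasi-likelihood F test, TMM, limma 3.58.1, R 4.3.3), separately in PMNs, in TECs and jointly. The groups were the terms, 4 in the fit of each cell type and 8 in the joint fit. The threshold was a Benjamini-Hochberg adjusted p under 0.05. Standard errors are the absolute log2 fold change over the root of F. DESeq2 1.42.0 and apeglm 1.24.0 (s value under 0.01), other scalings, filters, files, a length offset, the replicate number and leaving out each library were alternatives. Scaling to neutrophil markers and leaving out 2 sham libraries were added after the data were seen. The fits were run on simulated counts with large changes set in well-covered genes. That check does not cover small changes or genes near the floor. Counting intervals (95%) cover counting error only.

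The 9 genes and the lists were chosen with earlier results of these data known. Named were the 9 genes, up to 4 called genes per list and direction (where none was called, up to 2 with the smallest p), and the 5 genes most like the 9. Values of some genes of these lists are not reported here.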

Additional observations from a re-analysis of the deposited data

Results flagged for a closer look

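Among the 9 receptor genes, 32 groups of libraries were examined for a library far from the others of its cell type and surgery, and 7 held one. Chance gives about 1 in 20 groups where values are continuous, a rate that does not hold for the 6 TEC groups among them: there the medians were 0 to 0.739 CPM, and where all others are at 0 any library with reads stands apart by construction. In sham TECs, control replicate 3 had 1.28 CPM of *Ccr1* against a median of 0, control replicate 2 had 6.23 CPM of *Ccrl2* against a median of 0.0221, and RIPC replicate 1 had 0.38 CPM of *Ltb4r1* against a median of 0. In IRI TECs, control replicate 2 had 15.4 CPM of *Ccr2* (median 0.739) and 3.52 CPM of *Ccrl2* (median 0.0923), and control replicate 1 had 6.5 CPM of *Fpr2* (median 0). In IRI PMNs, control replicate 1 had 339 CPM of *Fpr1*, below the other 4 libraries (median 459).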

How the results depend on the processing

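Values of single receptor genes under an alternative were tallied for chosen pairs of a gene and a comparison, not for all. RIPC in TECs and its interaction with surgery there were left out. So were some small fitted changes, such as *Ccrl2* for IRI in TECs (log2 fold change 0.07). Sign changes among the values left out are not in this tally. Of the 807 values tallied, 753 kept direction and side of the threshold, 26 newly passed it, 22 no longer passed and 6 changed sign. The sign changes were *Ccr2* for IRI in PMNs (-0.17 to 0.91 without single libraries, lowest without IRI control replicate 2, and -0.35 with scaling to neutrophil markers), *Ccr1* for RIPC after sham in PMNs (-1.98 to 1.75, highest without sham control replicate 1), *Cxcr4* for RIPC after IRI in PMNs (0.16 with the replicate block, and -0.55 to 0.05 without single libraries, highest without IRI RIPC replicate 3) and *Ccrl2* for the difference between cell types (-1.20 to 4.96, lowest without TEC sham control replicate 2). None of these was called. The cause was not tested.

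For IRI in PMNs, 3 of the 9 genes and 104 genes in all were called. Without a filter these were 6 and 971, by DESeq2's Wald test 6 and 1421, with the replicate block 1 and 23, with scaling to neutrophil markers 0 and 9, and 281 genes without the 2 macrophage-rich sham libraries. Leaving out single libraries gave 1 to 6 of the 9 and 5 to 393 genes. Within the RIPC arm (1 of the 9, 62 genes), no filter gave 6 and 738, the Wald test 6 and 1184, the block 0 and 1, scaling to neutrophil markers 0 and 0, and leaving out single libraries 1 to 5 and 3 to 204. For RIPC in PMNs after sham (1 gene), RIPC after IRI (0) and their interaction (0), no filter gave 139, 18 and 101 genes, and the Wald test 693, 374 and 595. For IRI in TECs (363), RIPC after sham (0), RIPC after IRI (1) and the interaction (0), no filter gave 1289, 54, 71 and 84 genes and the Wald test 2080, 447, 668 and 588. With apeglm, RIPC gave 289 and 10 genes in PMNs and 84 and 219 in TECs after sham and IRI. For PMNs against TECs (2182) the Wald test gave 5367, and for the difference of the IRI effect (0) it gave 2349, no filter 722 with 1 of the 9 (*Ccrl2*), and file 1 or file 2 alone 1 gene each. File 2 alone and the block gave 0 genes for RIPC after sham in PMNs, and for RIPC after IRI in TECs file 1 gave 2 and the block 3. Without single libraries the counts ran from 0 to 11 (RIPC after sham) and 0 to 0 (RIPC after IRI, interaction) in PMNs, 92 to 714 (IRI), 0 to 6, 0 to 22 and 0 to 15 in TECs, 1661 to 2370 between cell types and 0 to 124 for the difference. None of the 9 was called for RIPC in any of these. Where a group is left with 1 library, that library is assumed to vary like the other groups.

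Within a cell type, the replicate numbers showed no clear pairing: deviations of same-numbered libraries correlated at -0.023 to 0.0303 in PMNs and -0.1 to 0.137 in TECs. Those of differently numbered libraries correlated at -0.0303 to 0.0294 in PMNs and -0.119 to 0.0717 in TECs. Pairs of a PMN and a TEC library were not examined, and the joint fit treats all 21 libraries as independent. With 2 or 3 libraries per group and a biological coefficient of variation of 1.54 to 1.67, small differences were not detectable, and large ones could go uncalled. By edgeR, *Ccr1* was 9.53-fold higher after IRI in PMNs (adjusted p = 0.106). *Cxcr4* was 4.99-fold higher with RIPC in PMNs after sham surgery (adjusted p = 0.705).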
